A study of Sus scrofa with 11 samples.

Results

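The 6 genes described here encode enzymes of the citrate cycle: OGDH, DLST, MDH2, IDH2, IDH3G and FH. They were taken by symbol, and each symbol belonged to 1 pig Ensembl gene ID (ENSSSCG00000016743, ENSSSCG00000002374, ENSSSCG00000025486, ENSSSCG00000001852, ENSSSCG00000012783 and ENSSSCG00000028178 in the same order), so 6 of the 25322 genes in the count table were members. The genes were chosen by values of these same pigs, their log2 fold changes between the 2 groups and the calls made on them, so those fold changes are given as a description and support nothing. RNA was sequenced from the longissimus lumborum, a back muscle, of 11 female pigs aged 23 weeks, with 1 column of estimated counts per pig. In the 7 fibre1 pigs more than 17% of the fibres were type I (slow and oxidative) and less than 70% were type IIB (fast and glycolytic). In the 4 fibre2B pigs fewer than 8% of the fibres were type I and more than 70% were type IIB. The labels give the groups as limits on fibre shares from the same muscle, not as a measured share for each pig, and give no treatment, breed or allele.

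The citrate cycle runs in the mitochondrial matrix. It oxidises the acetyl group of acetyl-CoA to carbon dioxide and passes the electrons, as NADH and reduced flavin, to the respiratory chain. Slow oxidative fibres are known to hold more mitochondria and more activity of cycle enzymes than fast glycolytic fibres. In whole muscle a change in the share of fibres of a type and a change in the RNA per fibre cannot be told apart.

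Total gene counts ran from 18369053 to 36374829 in fibre1 pigs and from 14832736 to 22145667 in fibre2B pigs. Levels are in CPM, the count relative to the library total after scaling with TMM factors, which correct for the make-up of a library. They do not rank genes against each other, because transcript lengths were not used. Fibre1 pigs 5 and 6 stood apart in library make-up, with 45.2% and 44.1% of all counts on the 10 nuclear genes of highest abundance. That share was 29.5% to 36.8% in the remaining 5 fibre1 pigs and 31.8% to 36.1% in fibre2B pigs. These 2 pigs also had the lowest TMM factors, 0.718 and 0.779. The muscle genes ACTA1 (skeletal actin) and DES (desmin) together had 72400 to 157000 CPM in fibre1 and 53800 to 82900 CPM in fibre2B. The 5 slow-fibre genes with a row summed to 10300 to 41900 CPM in fibre1 and 2680 to 10400 CPM in fibre2B, with MYH7, MYL2 and ATP2A2 not analysed here. Of the 5, the myosin gene MYH6 was called higher in fibre1 (log2 fold change 2.29, edgeR adjusted p = 0.034). The 4 of 10 fast-fibre genes with a row summed to 42200 to 89300 CPM in fibre1 and 47100 to 55800 CPM in fibre2B. MYL11 had the largest part of that sum, with means of 46160 CPM in fibre1 and 43050 CPM in fibre2B. All 4 fast-fibre genes had log2 fold changes above 0 (0.10 to 0.82, median 0.55), and edgeR called 0 of them. The 5 slow-fibre genes were also all above 0 (median 1.06), as were 50.7% of all genes tested. Markers of other cells were summed likewise. Of 5 fibroblast markers 4 had a row and summed to 232 to 626 CPM in fibre1 and 438 to 996 CPM in fibre2B, and 2 of the 3 tested (DCN and LUM) were called lower in fibre1 by edgeR. For blood, 3 of 4 markers summed to 137 to 468 CPM in fibre1 and 423 to 955 CPM in fibre2B, and 1 of the 3 (HBB, a haemoglobin chain) was called lower in fibre1 (log2 fold change -1.27, edgeR adjusted p = 0.041). For leukocytes 3 of 4 summed to 2.03 to 11.4 CPM in fibre1 and 6.32 to 17.2 CPM in fibre2B. Endothelial markers (3 of 4, 57.8 to 121 CPM in fibre1 and 60.8 to 104 CPM in fibre2B) and adipocyte markers (2 of 5, 1.70 to 6.42 CPM in fibre1 and 1.47 to 5.41 CPM in fibre2B) covered like summed ranges. The endothelial marker TIE1, named after its value was seen, averaged 7.61 CPM in fibre1 and 4.44 CPM in fibre2B. Every fibre1 pig was above every fibre2B pig for TIE1, as for 3.40% of all genes. It was not called (log2 fold change 0.78, edgeR adjusted p = 0.058), and PECAM1 and KDR overlapped. No marker with a row was at 0 in every pig. The part of these other cells in the levels below was not tested.

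The 2-oxoglutarate dehydrogenase complex converts 2-oxoglutarate to succinyl-CoA. OGDH encodes its first component, which decarboxylates the substrate. OGDH had 146 CPM in the lowest, 233 in the median and 378 in the highest fibre1 pig, against 119, 140.1, 88.8 and 138 CPM in fibre2B pigs 10, 11, 14 and 16. Every fibre1 pig was above every fibre2B pig, although fibre1 pig 12 lay only slightly above fibre2B pigs 11 and 16. The group means were 246 ± 85.3 CPM in fibre1 and 122 ± 23.9 CPM in fibre2B (SD, n = 7 and n = 4), a 2.02-fold difference (log2 fold change, fibre1 minus fibre2B, 1.02 ± 0.26 SE). DLST encodes the second component of the same complex, a succinyltransferase that carries lipoic acid. DLST had 74.7 CPM in the lowest, 83.5 in the median and 118 in the highest fibre1 pig, against 83.8, 63.2, 53.4 and 74.6 CPM in fibre2B pigs 10, 11, 14 and 16. The groups overlapped, with 3 fibre1 pigs above the highest fibre2B pig. The DLST means were 88.6 ± 16.5 CPM in fibre1 and 68.8 ± 13.3 CPM in fibre2B (SD), with a log2 fold change of 0.37 ± 0.17.

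The isocitrate dehydrogenases stand just before that complex. IDH3G encodes a regulatory subunit of the NAD-dependent enzyme of the cycle proper. IDH3G had 97.9 CPM in the lowest, 119 in the median and 182 in the highest fibre1 pig, against 104, 106, 81.3 and 93.4 CPM in fibre2B pigs 10, 11, 14 and 16. Fibre1 pigs 5 (182 CPM) and 6 (164 CPM) stood above the other 5, which reached 120.4 CPM. IDH3G averaged 128 ± 32.6 CPM in fibre1 pigs against 96.1 ± 11.3 CPM in fibre2B pigs (SD), and its log2 fold change was 0.41 ± 0.19. IDH2 encodes the NADP-dependent mitochondrial enzyme, which catalyses the same conversion with another cofactor. IDH2 had 311 CPM in the lowest, 436 in the median and 592 in the highest fibre1 pig, against 486, 312.5, 192 and 346 CPM in fibre2B pigs 10, 11, 14 and 16. It had the widest fibre2B range of the 6 genes relative to its mean (coefficient of variation 36.1%), and 2 fibre1 pigs exceeded fibre2B pig 10. IDH2 averaged 447 ± 102 CPM in fibre1 pigs against 334 ± 121 CPM in fibre2B pigs (SD), and its log2 fold change was 0.42 ± 0.24.

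The last 2 steps return the cycle to oxaloacetate. FH encodes fumarase, which hydrates fumarate to malate. FH had 127 CPM in the lowest, 177 in the median and 206 in the highest fibre1 pig, against 146, 156, 112 and 145 CPM in fibre2B pigs 10, 11, 14 and 16. Here 5 fibre1 pigs were above all fibre2B pigs, and pigs 7 and 12 were not. FH averaged 172 ± 29.7 CPM in fibre1 pigs against 139.7 ± 19.3 CPM in fibre2B pigs (SD), and its log2 fold change of 0.30 ± 0.16 was the smallest of the 6. MDH2 encodes the mitochondrial malate dehydrogenase. MDH2 had 403 CPM in the lowest, 574 in the median and 699.9 in the highest fibre1 pig, against 507, 384, 301 and 435 CPM in fibre2B pigs 10, 11, 14 and 16. Again 5 fibre1 pigs were above all fibre2B pigs, and pigs 7 and 12 were the exceptions. MDH2 averaged 557.5 ± 118 CPM in fibre1 pigs against 407 ± 86.9 CPM in fibre2B pigs (SD), and its log2 fold change was 0.46 ± 0.20.

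**Figure D1:**
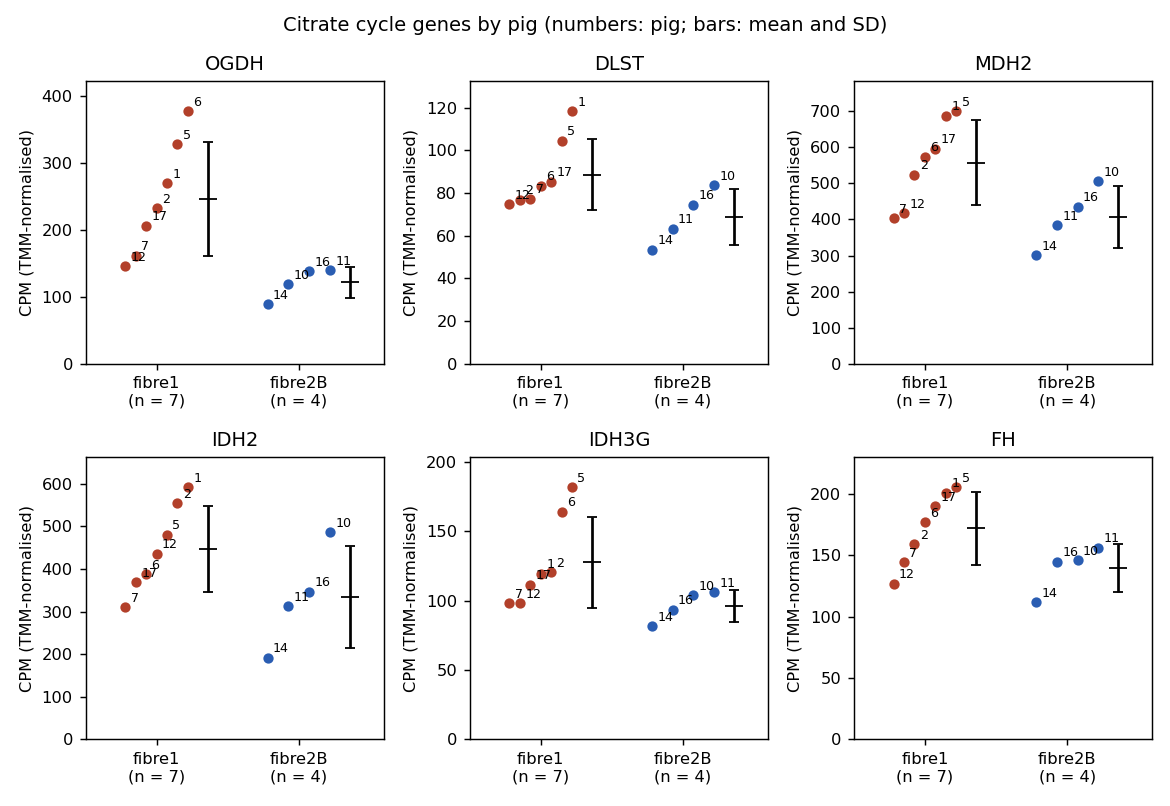
CPM (TMM-normalised, from 0) of the 6 genes in each pig, with fibre1 pigs left and fibre2B pigs right, points spread sideways by level only, and the mean and SD beside them. OGDH is the gene whose groups do not overlap, fibre2B pig 14 is the lowest pig in all 6 panels, and the lowest fibre1 pig is pig 7 in 3 panels and pig 12 in the other 3.

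The same pigs stood at the ends of the range across the genes. Fibre2B pig 14 was the lowest of all 11 pigs for 6 of the 6 genes, and it also had the lowest total count and the lowest mean of the slow troponin genes TNNI1 and TNNT1 (9.08 log2 CPM, against 10.03 to 11.07 in the other fibre2B pigs). Within fibre1, pig 7 was lowest for 3 genes and pig 12 for the other 3. The highest pig was pig 5 for 3 genes, pig 1 for 2 and pig 6 for 1. Each gene's counts equalled those of 1 isoform row within 1 count in every pig, so isoform use could not be compared, and 0 other gene rows had the same counts.

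By edgeR's quasi-likelihood test with Benjamini-Hochberg adjustment over all 11329 genes tested, 1 of the 6 members, OGDH, passed an adjusted p of 0.05 and was higher in fibre1. Of all genes tested 9.01% were called, 4.38% as higher in fibre1 and 4.63% as higher in fibre2B. The genes had been chosen by this contrast, so nothing is read from that count. The other 5 members did not pass, and their log2 fold changes lay between 0.30 and 0.46 with SE of 0.16 to 0.24. All 6 fold changes were above 0 (median 0.41), as were 50.7% of those of all genes tested (median 0.0073). The groups did not overlap in 1 of 6 members, while 3.40% of all genes had every fibre1 pig above every fibre2B pig and 4.15% every fibre1 pig below. All 6 genes passed the filter on low counts.

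The other enzymes of the cycle were tested in the same fit. Of 11 further cycle genes 9 were tested (CS and IDH3A are not analysed here), 7 had positive values, and the median log2 fold change was 0.14. By edgeR 0 of these 9 passed, with 1 at an unadjusted p under 0.05 and 1 called by DESeq2, in both cases SDHA. Of all genes tested 28.9% had an unadjusted p under 0.05 and 15.4% were called by DESeq2. SDHA, the flavoprotein of succinate dehydrogenase, averaged 241 ± 61.5 CPM in fibre1 pigs against 153 ± 35.0 CPM in fibre2B pigs, and its log2 fold change of 0.66 ± 0.21 did not pass (edgeR adjusted p = 0.066). It passed with DESeq2 (adjusted p = 0.021), and with edgeR without fibre1 pig 7 (0.73, adjusted p = 0.045) or pig 12 (0.72, 0.044). Calls over the whole table also rose without these pigs, from 1021 to 1164 and 1548. With any single pig left out SDHA had 0.53 to 0.76 (edgeR adjusted p = 0.044 to 0.198). The other 3 subunits of succinate dehydrogenase had lower values. SDHB, the iron-sulphur subunit, had 0.14 ± 0.18, and the membrane anchors had -0.10 ± 0.21 (SDHC) and 0.06 ± 0.16 (SDHD). The 3 succinyl-CoA ligase genes SUCLG1 (0.27 ± 0.17), SUCLA2 (0.19 ± 0.17) and SUCLG2 (0.05 ± 0.21) did not pass, nor did IDH3B, a further subunit of the NAD-dependent isocitrate dehydrogenase (0.30 ± 0.20). DLD, the third component of the 2-oxoglutarate dehydrogenase complex and shared with the pyruvate dehydrogenase complex, averaged 154 ± 33.6 CPM in fibre1 pigs against 165 ± 30.9 CPM in fibre2B pigs, and its log2 fold change was -0.09 ± 0.18. The 3 components of the complex thus had log2 fold changes of 1.02 (OGDH), 0.37 (DLST) and -0.09 (DLD). Differences between the genes' fold changes were not tested.

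**Figure D2:**
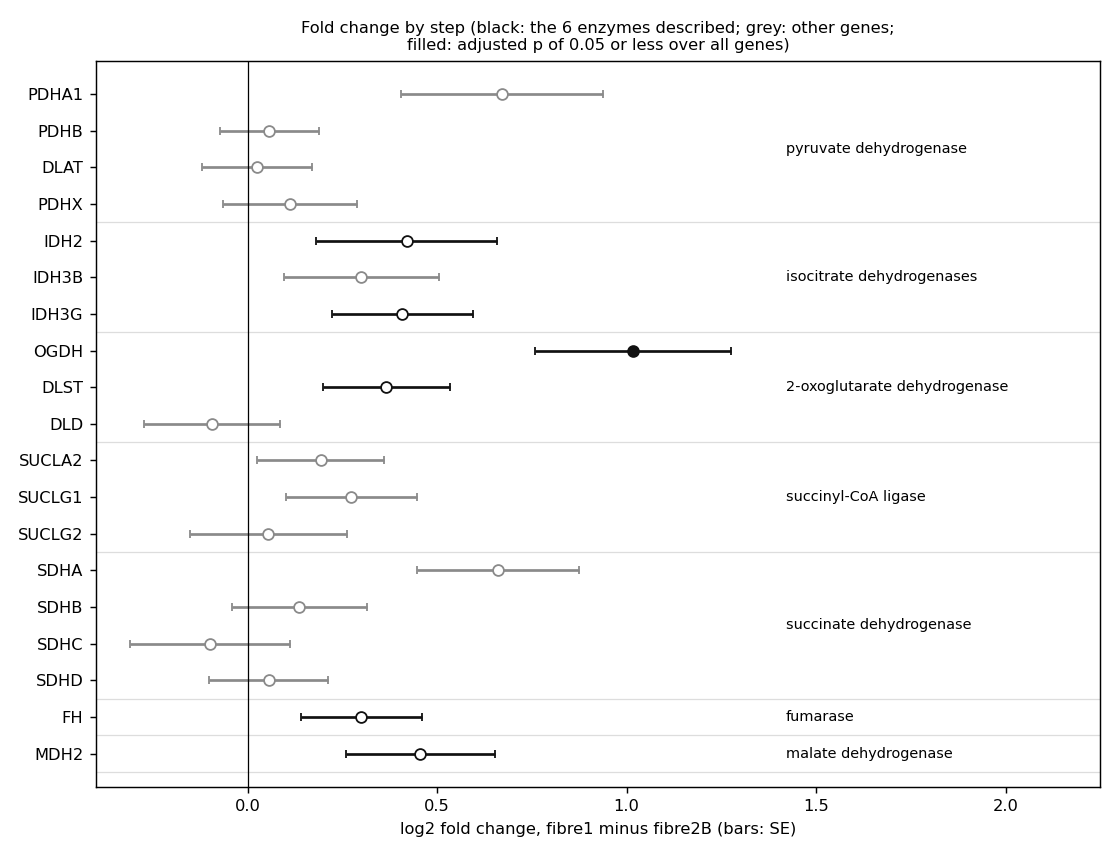
Log2 fold change, fibre1 minus fibre2B, with SE, of 15 cycle genes and 4 pyruvate dehydrogenase genes, ordered by step from top to bottom; black marks the 6 enzymes, grey the other genes, and filled points passed an adjusted p of 0.05 over all genes. OGDH (1.02) is filled, the other 5 enzymes sit between 0.30 and 0.46, and several grey genes sit near 0.

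How far OGDH stood from the rest of the cycle was also read pig by pig. The log2 CPM of OGDH minus the mean log2 CPM of the other 5 members was -0.27 in the lowest, 0.06 in the median and 0.77 in the highest fibre1 pig, against -0.74, -0.24, -0.47 and -0.32 in fibre2B pigs 10, 11, 14 and 16. The groups overlapped by 1 fibre1 pig, pig 12. The mean of this difference was 0.13 ± 0.33 in fibre1 and -0.44 ± 0.22 in fibre2B (SD), so OGDH was higher in fibre1 by a further 0.57 over the other members, and by 0.41 without fibre1 pigs 5 and 6. Against the mean of the 9 other cycle genes the gap between groups was 0.80, and 0.56 without those 2 pigs. Because OGDH had been singled out for its fold change, these gaps carry no test. Across the 6 members the mean log2 CPM was 7.76 ± 0.28 in fibre1 and 7.28 ± 0.28 in fibre2B (SD), with 2 fibre1 pigs at or below the highest fibre2B pig. Across the 9 other cycle genes it was 7.43 ± 0.22 in fibre1 and 7.27 ± 0.26 in fibre2B, with 6 fibre1 pigs at or below it.

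Genes that feed or drain the cycle were tested too. Of the 4 genes of the pyruvate dehydrogenase complex, which makes acetyl-CoA from pyruvate, 0 passed by edgeR or DESeq2, and 1 had an unadjusted p under 0.05. That was PDHA1, a catalytic subunit gene, with a log2 fold change of 0.67 ± 0.27 (edgeR adjusted p = 0.115). PDHB (0.06 ± 0.13), DLAT (0.03 ± 0.15) and PDHX (0.11 ± 0.18) were closer to 0.

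Of 10 tested genes of the malate-aspartate shuttle and of anaplerosis (the refilling of cycle intermediates) 7 had positive values and 0 passed by edgeR, with 2 at an unadjusted p under 0.05 and 2 called by DESeq2, in both cases PCK2 and PC, which is near the 28.9% and 15.4% of all genes. PCK2, mitochondrial phosphoenolpyruvate carboxykinase, averaged 0.642 ± 0.364 CPM in fibre1 pigs against 1.74 ± 1.21 CPM in fibre2B pigs (log2 fold change -1.40 ± 0.46, edgeR adjusted p = 0.072). PC, pyruvate carboxylase, averaged 42.4 ± 17.1 CPM in fibre1 pigs against 24.4 ± 5.13 CPM in fibre2B pigs (0.80 ± 0.29, edgeR adjusted p = 0.088). Of 6 tested genes of lipoic acid attachment and of the branched-chain 2-oxoacid complex, which is built like the 2-oxoglutarate complex, 3 had positive values and 0 passed by edgeR, with 4 at an unadjusted p under 0.05 and 2 called by DESeq2 (BCKDK and LIPT2), against the same 28.9% and 15.4% of all genes. BCKDK, the kinase that inhibits the branched-chain complex, had 0.52 ± 0.18 (edgeR adjusted p = 0.083), and BCKDHA, a subunit of its decarboxylase, had 0.55 ± 0.20 (adjusted p = 0.099). BCKDHB, the partner subunit of that decarboxylase, named after its value was seen, had the opposite sign at -0.44 ± 0.17 (edgeR adjusted p = 0.112). LIPT2, a gene of lipoic acid attachment also named after its value was seen, had 0.93 ± 0.35 (edgeR adjusted p = 0.099). The succinate dehydrogenase assembly factor gene SDHAF2 had 0.48 ± 0.15 (edgeR adjusted p = 0.065). Without fibre1 pig 12 edgeR called PCK2 (-1.57, adjusted p = 0.049), PC (0.90, 0.038), BCKDK (0.58, 0.046) and SDHAF2 (0.52, 0.041). Calls over the whole table also rose without that pig, to 1548 of 11139 genes tested, from 1021 of 11329. SDHAF2 was also called without fibre1 pig 7 (0.55, edgeR adjusted p = 0.035), and BCKDHA without fibre2B pig 11 (0.75, 0.048). Without other single pigs the edgeR adjusted p reached 0.279 for PCK2, 0.21 for PC and 0.201 for BCKDK. It reached 0.156 for SDHAF2 and 0.244 for BCKDHA.

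All 3 tested genes of the mitochondrial calcium uniporter had positive values, and 0 passed by edgeR or DESeq2, with 1 at an unadjusted p under 0.05. That was MICU2, a gatekeeper of calcium uptake (0.35 ± 0.15), while MCU, the pore, had 0.72 ± 0.49. The cytosolic counterparts IDH1 (-0.12 ± 0.22) and ACO1 (-0.08 ± 0.18) were near 0, with 0 at an unadjusted p under 0.05 and 0 called by DESeq2.

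Whether the 6 genes vary together from pig to pig was examined after each pig's log2 CPM had its group mean subtracted, which removes the difference between fibre1 and fibre2B that had been used to pick them. All 15 pairs had a positive Pearson's r over the 11 pigs (0.36 to 0.90, median 0.73), and 10 of 15 passed a Benjamini-Hochberg adjusted p of 0.05 in two-sided exact permutation tests that shuffled pigs within groups. With Spearman's rho 4 of 15 passed. Leaving out 1 pig lowered the count to 3 (without fibre1 pig 5 or 7 or fibre2B pig 14), 4 (without fibre1 pig 12 or fibre2B pig 16) or 6 (without fibre2B pig 10 or 11), and every r stayed positive. Over all tested genes the median r with a member lay between -0.07 and 0.01, but the spread was wide. The share of all tested genes with r above 0.7 ran from 2.12% for IDH2 to 7.9% for IDH3G. For MDH2 and IDH3G, a passing pair, 8.51% of all tested genes had as high an r with IDH3G and 4.14% with MDH2.

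The closest pairs were not always neighbours in the cycle. OGDH and IDH3G had r = 0.90 (exact permutation p = 0.0010, adjusted 0.0057) and rho = 0.90 (exact p = 0.00074), and 0.56% of all tested genes had as high an r with OGDH. DLST and MDH2 had r = 0.90 (exact permutation p = 0.00093, adjusted 0.0057) and rho = 0.90 (exact p = 0.00099). MDH2 and FH had r = 0.89 (exact permutation p = 0.0011, adjusted 0.0057) and rho = 0.84 (exact p = 0.0048). Without the 2 pigs farthest from the median of the first gene these r were 0.86, 0.88 and 0.84 (exact permutation p = 0.0059, 0.0019 and 0.011). OGDH and DLST, which belong to the same complex, had r = 0.54 (exact permutation p = 0.094, adjusted 0.129) and rho = 0.53 (exact p = 0.108), and 0.68 without the 2 farthest pigs (exact p = 0.074). Of all tested genes 15.8% had as high an r with OGDH as DLST had, and 7.04% as high an r with DLST as OGDH had. The lowest r was that of IDH2 with IDH3G, 0.36 (exact permutation p = 0.231, rho = 0.43). As high an r was seen in 26.3% of all tested genes with IDH3G and in 17.6% with IDH2. IDH2 had passing relations with DLST (r = 0.73, adjusted exact p = 0.035, rho = 0.64) and MDH2 (r = 0.73, adjusted exact p = 0.035, rho = 0.65). That with DLST had r = 0.53 without fibre1 pig 1 and fibre2B pig 10 (exact p = 0.218). That with MDH2 had r = 0.43 without fibre1 pig 7 and fibre2B pig 14 (exact p = 0.271). Neither p was under 0.05 without the 2 pigs, though a test on fewer pigs is also weaker. The same held for MDH2 and IDH3G (r = 0.69, rho = 0.66, and 0.55 without fibre1 pig 7 and fibre2B pig 14, exact permutation p = 0.198).

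**Figure D3:**
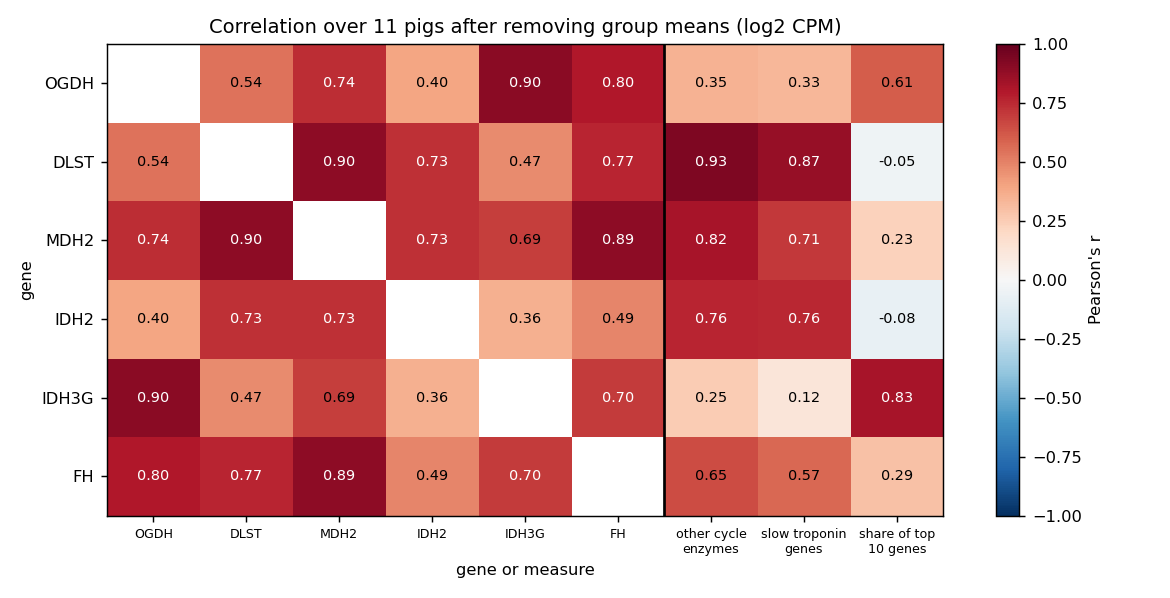
Pearson's r over 11 pigs of log2 CPM after removal of group means, between the 6 genes (left of the line) and of each with the mean of 9 other cycle genes, the mean of TNNI1 and TNNT1, and the share of counts on the 10 most abundant nuclear genes (right). DLST has the highest r with the other cycle genes (0.93) and OGDH and IDH3G the lowest (0.35 and 0.25), while IDH3G has the highest r with that share (0.83).

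Members were then set against the mean log2 CPM of the 9 other cycle genes, again within groups, in 6 relations of which 3 passed. The share of all tested genes that would pass with this mean was not computed, so that count has no background. DLST followed them most closely, with r = 0.93 (exact permutation p = 0.00039, adjusted 0.0023) and rho = 0.86 (exact p = 0.0026), and r = 0.84 without the 2 farthest pigs, fibre1 pig 1 and fibre2B pig 10 (exact p = 0.018). MDH2 had r = 0.82 (adjusted exact p = 0.010) and rho = 0.82, and IDH2 had r = 0.76 (adjusted exact p = 0.026) and rho = 0.69. Without those 2 pigs r was 0.775 for MDH2 (exact permutation p = 0.023) and 0.56 for IDH2 (0.200), so p for IDH2 was not under 0.05 without them. FH (r = 0.65, adjusted exact p = 0.059, rho = 0.64), OGDH (r = 0.35, adjusted exact p = 0.368, rho = 0.25) and IDH3G (r = 0.25, adjusted exact p = 0.477, rho = 0.28) did not pass. The low r of OGDH and IDH3G depended on fibre1 pigs 5 and 6. Without these 2 pigs r was 0.61 for OGDH and 0.58 for IDH3G (adjusted exact permutation p = 0.132 and 0.135). DLST had r = 0.97 over the same pigs (adjusted exact p = 0.0094).

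The slow troponin genes TNNI1 and TNNT1 gave the same order at its ends. DLST had r = 0.87 with their mean (exact permutation p = 0.0015, adjusted 0.0091) and rho = 0.90 (exact p = 0.00055), MDH2 r = 0.71 (adjusted exact p = 0.031, rho = 0.73) and IDH2 r = 0.76 (adjusted exact p = 0.031, rho = 0.53). Without fibre1 pig 1 and fibre2B pig 10 these r were 0.69, 0.565 and 0.60 (exact permutation p = 0.066, 0.045 and 0.286). Thus p was not under 0.05 for DLST or IDH2 without these 2 pigs. Fibre1 pig 1 had a slow troponin mean of 12.82 log2 CPM, against 11.00 to 11.33 in the other fibre1 pigs. In fibre2B pig 10 that mean was 11.07. The r of DLST was 0.795 to 0.987 when any single pig was left out, and it passed each time. In fibre1 pigs alone it was 0.79 and did not pass (adjusted exact permutation p = 0.163). Of these 6 relations 3 passed, and 1 without fibre1 pig 12 or any single fibre2B pig. Here too the share of all tested genes that would pass was not computed. FH (r = 0.57, rho = 0.71), OGDH (r = 0.33, rho = 0.43) and IDH3G (r = 0.12, rho = 0.37) had adjusted exact permutation p of 0.128, 0.398 and 0.745.

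The make-up of the library moved with some of these genes. IDH3G had r = 0.83 with the share of counts on the 10 most abundant nuclear genes (exact permutation p = 0.016, adjusted 0.094 over 6 relations, rho = 0.85) and OGDH r = 0.61 (exact p = 0.096, adjusted 0.288, rho = 0.65), while the other 4 members lay between -0.08 and 0.29. By Pearson's r 0 of the 6 relations passed, and by rho 1 did (IDH3G, adjusted exact permutation p = 0.026). Without fibre1 pig 1, 2 of 6 passed, IDH3G with r = 0.955 and OGDH with r = 0.86 (adjusted exact permutation p = 0.0076 and 0.030). Without fibre1 pigs 5 and 6, where that share was highest, the r of IDH3G was 0.16 and that of OGDH -0.15 (exact permutation p = 0.685 and 0.767). Over the same 9 pigs r with the slow troponin genes was 0.695 for OGDH and 0.61 for IDH3G (adjusted exact permutation p = 0.058 and 0.129), that of OGDH and IDH3G with each other was 0.87 (adjusted exact p = 0.038), and 11 of the 15 pairs of members passed by Pearson's r and 0 by Spearman's rho. The part of library make-up in the relations of OGDH and IDH3G was not tested further.

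**Figure D4:**
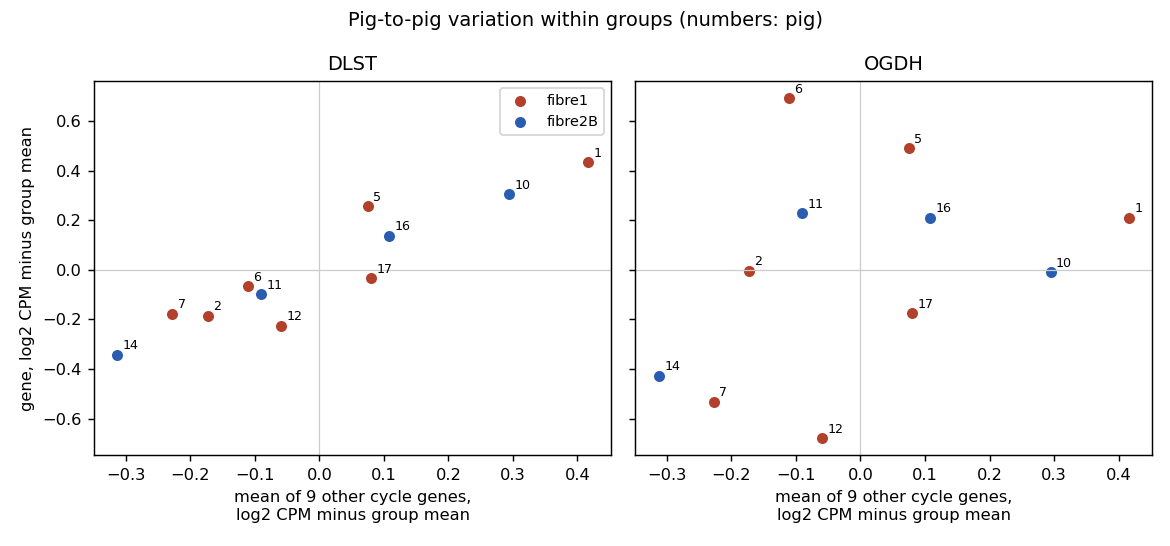
Log2 CPM minus the group mean of DLST (left) and OGDH (right) against the same for the mean of 9 other cycle genes, one point per pig, fibre1 red and fibre2B blue. The DLST points lie along a line (r = 0.93), and for OGDH (r = 0.35) fibre1 pigs 5 and 6 lie above the others at middle values of the x axis and pig 12 lies below.

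The genes most like each member over the 11 pigs, by r after removal of group means, were the following. For OGDH they were CASQ1, the calcium-binding protein calsequestrin of skeletal muscle (r = 0.97), SYN1 (0.96) and ADCY2, an adenylate cyclase gene (0.96). For DLST they were IMMT, a protein of mitochondrial cristae (0.96), and the succinate dehydrogenase genes SDHB (0.95) and SDHA (0.94). For MDH2 they were ECSIT, a complex I assembly gene (0.97), TOPBP1 (0.97) and ECI2, an enzyme of fatty acid oxidation (0.96). For FH they were AMOT (0.93), NDUFA10, a complex I subunit gene (0.93), and OXCT1, which serves ketone body use (0.91). For IDH2 they were GUCD1 (0.94), MKNK1 (0.93) and RFTN1 (0.92), and for IDH3G MOSPD3 (0.98), VPS4A (0.98) and E2F6 (0.97). These are the top of 11328 values per gene and share library and scaling.

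The calls depended on which pigs were included. OGDH (edgeR adjusted p = 0.033 with all pigs) lost its call when fibre1 pig 1 (log2 fold change 0.99, edgeR adjusted p = 0.055), 2 (1.04, 0.057), 5 (0.93, 0.059) or 6 (0.88, 0.055) was left out. The same held for fibre2B pig 10 (1.01, edgeR adjusted p = 0.078), 14 (0.90, 0.112) and 16 (1.10, 0.066). Without fibre2B pig 14 edgeR called 0 genes of the whole table (2436 at an unadjusted p under 0.05). The fold changes of the members kept their sign each time. OGDH had 0.74 without fibre1 pigs 5 and 6 together (edgeR adjusted p = 0.085) and 0.82 when the top-gene share of each pig entered the fit as a covariate (0.058). IDH3G had 0.19 without those 2 pigs and 0.22 with the covariate, and IDH2 had 0.24 without fibre2B pig 14 and 0.66 without pig 10.

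**Figure D5:**
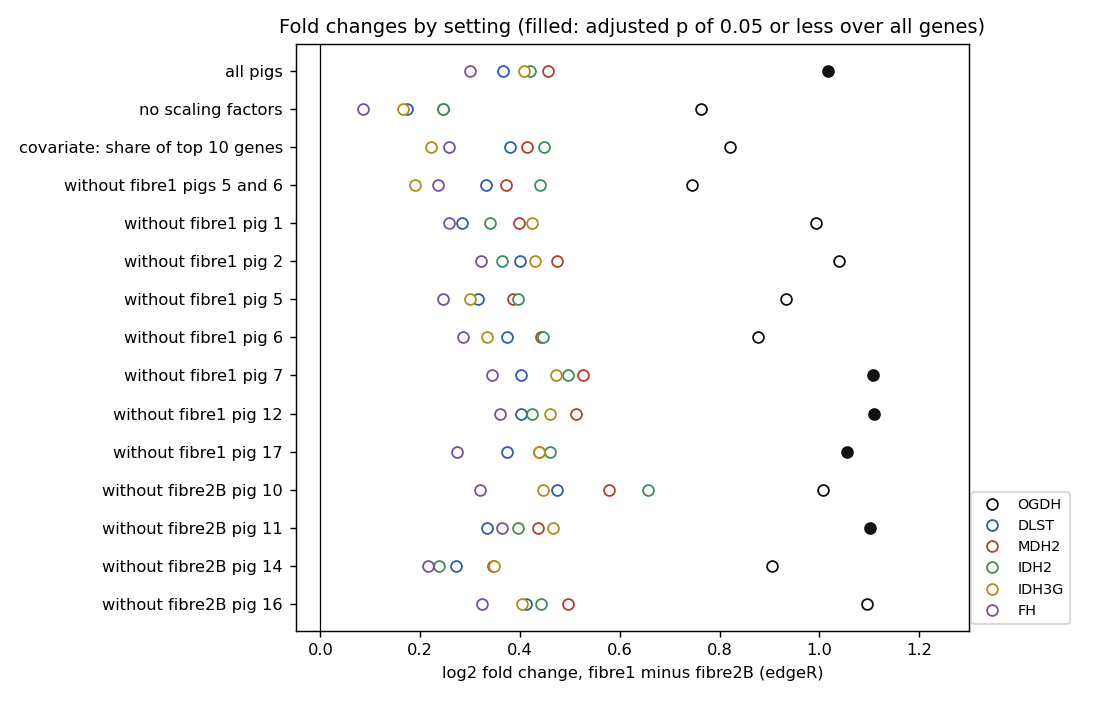
Log2 fold change (edgeR, fibre1 minus fibre2B) of the 6 genes with all pigs, without scaling factors, with the top-gene share as covariate, without fibre1 pigs 5 and 6, and without each pig; filled points passed an adjusted p of 0.05 over all genes. OGDH lies right of the other 5 on every line, is filled with all pigs and without fibre1 pigs 7, 12 and 17 and fibre2B pig 11, and no point of any gene lies below 0.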

How the data were processed

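Per the labels' protocols, a TruSeq kit and 300 ng of total RNA were used for each library, and the design text names 50 single-end cycles in 5 technical repetitions. How the repetitions were joined is not given in the sources used here. The deposited values are expected counts (estimated, not normalised, without decimals) per gene (25322) and isoform (30585). The submitters' processing notes name CASAVA 1.8.2, FastQC, STAR, RSEM, edgeR, DESeq2 and the build Sscrofa10.2, with no roles. Columns were joined to pigs by the number in the sample title, and 0 columns belonged to other samples. A name table gave symbols to 11804 gene IDs. Gene positions and sequences were not used here. A few genes of the pathway lists are not reported here. Antisense or near-identical copies could share reads with a member, since the counting strand is not stated.

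The test was that of edgeR 4.0.16 (R 4.3.3) (TMM, filterByExpr, quasi-likelihood F test on group, no covariate, Benjamini-Hochberg adjusted p of 0.05). SE was taken as |log2 fold change| over the root of F. CPM correlations used log2(CPM + 0.5) minus group means, with all 120960 within-group orders of the pigs. Members, gene lists and tests were chosen with earlier results of these data known. All 6 members, all further cycle and pyruvate dehydrogenase genes, genes passing or, failing that, the 2 with the smallest p in the other pathway lists, marker genes that passed and some others, and the 3 most alike genes per member are named. The relation to the share of abundant genes was added after the data were seen. On simulated counts of 7 against 4 pigs (11097 genes), 51.5% of 2-fold and 91.6% of 4-fold changes were recovered, and 4.17% of the calls were false. Each gene was drawn separately there, so differences of a pig that many genes share were not simulated. Changes under 2-fold were not simulated either, so these rates do not cover those cases. Each sample is a separate pig, so replicates are animals. At these totals counting error of the members is small beside the spread between pigs (biological coefficient of variation 29.8%). Alternatives were other scaling (relative log expression, upper-quartile, none) and filters, DESeq2 1.42.0, limma-voom 3.58.1 with and without quality weights, robust dispersion, abundant genes removed or as a covariate, and pigs left out.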

Additional observations from a re-analysis of the deposited data

Results flagged for a closer look

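Over 38 sets of values (the cycle and pyruvate dehydrogenase genes tested, each in fibre1 and in fibre2B), 1 had a pig far from the others of its group by Dixon's criterion: DLD in fibre2B, where pig 10 had 210.5 CPM, above the other 3 pigs (gap of 0.83 of the range, critical value 0.829). Chance gives such a pig in about 1 of 20 sets. None of the 6 enzymes had one.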

How the results depend on the processing

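No paired analysis was possible because the 2 groups share no pig number. The 6 enzymes stayed above 0 in all 23 other fits, and OGDH stayed the 1 member called with relative log expression or upper-quartile factors, both other filters, DESeq2, both limma-voom fits, the robust fit and abundant genes removed. The count over the whole table was 1740 with DESeq2, 1748 with quality weights, 460 with the abundant-gene share as covariate, 28 without fibre1 pigs 5 and 6 and 157 with library totals only; with no filter it was 754. Calls among members were 0 with that covariate, without those 2 pigs and with library totals; other cycle genes called were 1 with DESeq2 and 1 with quality weights. Library totals moved the median of all genes to -0.19 and the higher-in-fibre1 share of calls to 33.8% (48.6% with TMM); relative to that median the members' median was 0.40, against 0.41 with TMM. Leaving out 1 pig gave 0 to 1548 genes, 0 to 1 members, 0 to 1 other cycle genes, 3 to 11 pairs of members, 2 to 4 relations with other cycle genes and 1 to 4 with slow troponin genes. In fibre1 alone 2 pairs, 0 relations with other cycle genes and 0 with slow troponin genes passed. With Spearman's rho 4 pairs passed over all 11 pigs and 1 in fibre1 alone.

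Signs near 0 turned. With library totals SDHB had -0.0587, SDHD -0.13, SUCLG2 -0.14, PDHX -0.0619, PDHB -0.14 and DLAT -0.18. With quality weights SDHD had -0.0115, SUCLG2 -0.0191, DLAT -0.0471 and ACO1 0.0245. DLAT had -0.0153 with upper-quartile factors. With the covariate DLD had 0.0182 and SDHC 0.0519, and without pigs 5 and 6 DLD had 0.0158, SDHC 0.0492 and DLAT -0.0175. Leaving out 1 pig turned DLAT (-0.0558 to 0.11), DLD (-0.17 to 0.0469), SDHC (-0.19 to 0.12), SDHD (-0.0223 to 0.13), SUCLG2 (-0.13 to 0.12), PDHX (-0.0358 to 0.29) and ACO1 (-0.23 to 0.0744). The r of IDH3G with slow troponin genes was -0.053 in fibre1 alone (-0.074 to 0.27 without 1 pig). With the abundant-gene share, r without pigs 5 and 6 was -0.15 for OGDH, -0.31 for MDH2 and -0.17 for FH; DLST had 0.028 with relative log expression factors and rho 0.091, IDH2 rho 0.082, and without 1 pig DLST had -0.36 to 0.44, IDH2 -0.19 to 0.18 and MDH2 -0.034 to 0.57. The cause of these turns was not tested.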
